A study of Mus musculus with 88 samples.

Results

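The solute carriers are the genes whose symbols begin with Slc and a number, and 152 of them were followed here through an inflammatory stimulus and 2 ligands of G protein-coupled receptors in RAW 264.7 cells, a mouse macrophage-like line grown from a virus-induced tumour. They were taken from the array platform's gene annotation, with symbols updated through Entrez identifiers to the RefSeq names of GRCm38.p6. The annotation named 189 such genes. Slc2a1, Slc40a1, Slc11a1 and Slc11a2 were set aside by the rule, 2 genes were at exactly 0 on every array, and 31 of the 183 that remained gave a value other than 0 on fewer than 44 of the 88 arrays. The 152 that were kept belong to 43 numbered families, out of 10518 genes tested in all, and 91 of them gave a value on all 88 arrays. Slc32a1, Slc10a2 and Slc22a2 lay just inside the limit, with values on 44, 45 and 47 arrays, and Slc1a1, Slc27a2, Slc12a1 and Slc8a3 just outside it, with 41, 39, 38 and 38. Going by their symbols, Slc39a1-ps is a pseudogene and Slc6a19os a transcript of the strand opposite a carrier, so neither is a transporter gene in the strict sense. Slc4a1ap and Slc9a3r2 bear a carrier's symbol with a suffix for an adaptor and a regulator, so they too need not be transporters. The rule keeps these genes, and they are counted among the carriers below.

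Cells were exposed for 1, 2 or 4 h to 1 of 5 treatments and compared on 2-colour custom Agilent oligonucleotide arrays with untreated cells held in medium for that length of time. The treatments were LPS (bacterial lipopolysaccharide) at 100 ng/ml, LPS with ISO (isoproterenol, an agonist of beta-adrenergic receptors) at 50 nM, LPS with PGE2 (prostaglandin E2) at 10 µM, ISO alone and PGE2 alone. A lipid binding protein at 100 pM is named for LPS alone and not for the other groups. Each group held 3 numbered sets, PGE2 at 1 h 2 sets, and a set was a dye-swap pair of arrays, averaged here to 1 value. The labels do not say whether sets came from separate cultures, nor whether the treatments of a given time shared their medium RNA. The p-values thus weigh a mean against the spread between sets, estimated over all 15 groups, and that spread may be only technical. Every value below is a log2 ratio of treated over medium cells. A ratio carries no level, so nothing is said of which carrier is abundant, and less RNA per cell cannot be told apart from a smaller share of cells that express a gene.

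The sources do not state the direction of the deposited ratios. They were read as Cy5 over Cy3 and turned where the treated RNA was in Cy3. With that reading, 19 measured genes known to be induced by LPS had a median above 0 on 18 of 18 arrays of LPS alone (1.91 to 3.25), and the direction is called likely. The arrays held exact zeros for 10.9 to 45.7% of probes, and the labels do not say what such a 0 means. The zeros were kept as values. Among macrophage markers 5 of 8 (Adgre1, Cd68, Csf1r, Cd14 and Fcgr1) and among markers of other cell types 8 of 12 gave a value on at least 44 arrays, among them Alb of liver and Gfap of glia. A value other than 0 is therefore no sign that a gene was expressed, and the identity of the cells rests on the labels.

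Solute carriers are membrane proteins that move small molecules across the plasma membrane and across the membranes of mitochondria, lysosomes and the Golgi. Some couple the solute to a gradient of sodium or protons, some exchange it for another, and some let it flow down its own gradient. In macrophages they supply arginine and cystine to the activated cell, carry lactate out, and distribute iron, copper, zinc and nucleosides between the compartments in which these are used or withheld from microbes.

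With LPS against medium, 13 of the 152 carriers passed an adjusted p of 0.05 at 1 h (8 higher, 5 lower), 36 at 2 h (23 higher, 13 lower) and 65 at 4 h (28 higher, 37 lower). These are 8.55%, 23.7% and 42.8% of the carriers. The shares of all 10518 genes that passed were 9.48% at 1 h (4.64% higher, 4.84% lower), 15.9% at 2 h (8.88% higher, 7.01% lower) and 30.7% at 4 h (14.3% higher, 16.4% lower). Among the 8589 genes that met the same minimum of 44 arrays they were 11.4%, 19.1% and 37.2%. The carriers' share was thus near the background at 1 h and a few percentage points above it at 2 and 4 h, a difference that was not tested. At 4 h the median absolute log2 ratio was 0.18 for the carriers, 0.11 for all genes and 0.15 for the genes on at least 44 arrays. At 4 h, 18.4% of the carriers rose and 24.3% fell, both more than among all genes. The genes on at least 44 arrays were not counted by direction. These 2 differences thus lack a background under the same minimum, and they were not tested. Only 8 of the 28 that rose and 2 of the 37 that fell did so by 2-fold or more.

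Slc15a3, Slc20a1, Slc25a37, Slc3a2 and Slc7a7 rose at all 3 times, and Slc22a5, Slc25a30 and Slc37a2 fell at all 3. A further group of 26 carriers that fell at 4 h had passed in neither direction at the earlier times, as had 9 that rose. The matching counts over all genes were not made. Among all genes the share that fell also grew, from 7.01% at 2 h to 16.4% at 4 h, and the share that rose from 8.88% to 14.3%. Without set 1 the count at 1 h was 5 and without set 2 it was 20, so the 1 h count depends on which sets are used. In set 2 at 1 h the 2 arrays of the dye swap did not agree over the carriers. Their r was −0.101 with LPS, −0.174 with LPS and ISO and −0.132 with LPS and PGE2, so the values of that set at 1 h are weak. When only the LPS sets of a single time were fitted, so that 3 values alone set the spread, 0, 4 and 29 carriers passed at 1, 2 and 4 h. The 4 at 2 h were Slc15a3, Slc7a11, Slc25a37 and Slc29a2. Among the carriers described below with per-set values, the 4 h calls of Slc20a1, Slc13a1, Slc5a3, Slc22a4, Slc22a5, Slc2a8, Slc37a3, Slc7a2, Slc6a9, Slc30a1, Slc29a1, Slc35f6 and Slc39a1-ps were lost in that fit.

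**Figure D1:**
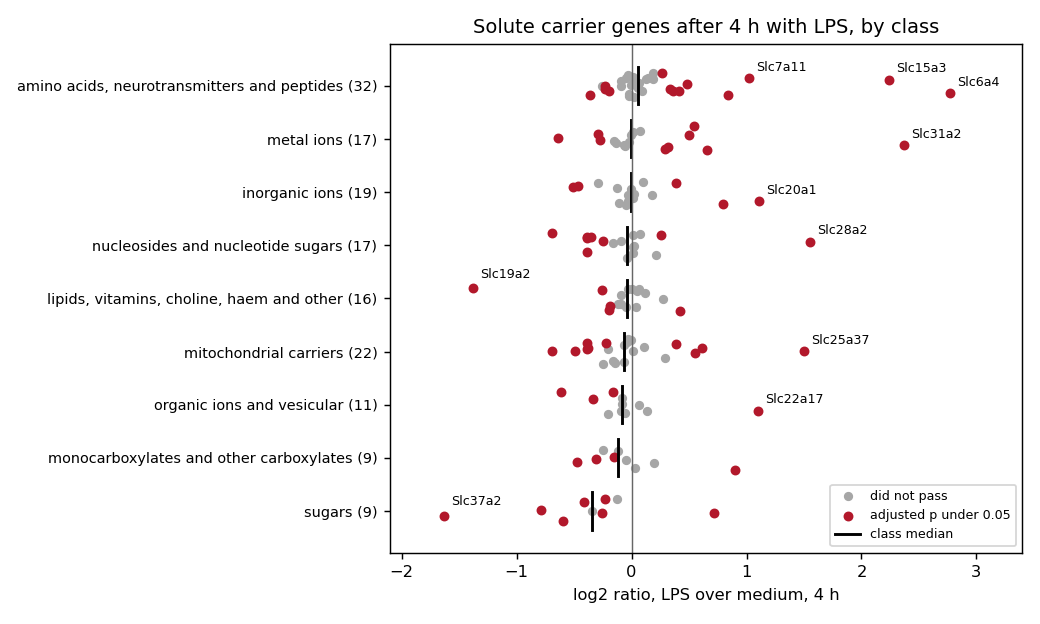
Log2 ratio of LPS-treated over medium cells at 4 h (mean over a gene's probes) for the 152 solute carriers. They are grouped by family number into classes named for a typical solute (vertical position within a class is jitter only). Red points passed an adjusted p of 0.05, grey points did not, and the black bars are class medians. The highest value is Slc6a4 at 2.77 and the lowest Slc37a2 at −1.63. Of the 9 sugar carriers 6 passed below 0, against 16.4% of all genes.

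Carriers were put into classes by family number, and a class is named for a typical solute. Class counts were not tested against other genes. Most carriers of amino acids, neurotransmitters and peptides did not pass with LPS. Of 32, 4 rose and 0 fell at 1 h, 8 rose and 0 fell at 2 h, and 9 rose and 4 fell at 4 h. Of all genes, 4.64% rose and 4.84% fell at 1 h, 8.88% and 7.01% at 2 h, and 14.3% and 16.4% at 4 h. By the mean over a gene's probes, the value ranked throughout, the largest increase among all 152 carriers was that of Slc6a4, the serotonin transporter. A single probe of Slc28a2 gave 3.10 with LPS at 4 h, above both probes of Slc6a4 (2.88 and 2.66). Slc6a4 takes serotonin back up from outside the cell. At 1 h its mean log2 ratio was 0.17 (adjusted p = 0.601). At 2 h the 3 sets had 1.49, 0.75 and 1.53, a mean of 1.26 ± 0.44 (SD, n = 3; 2.39-fold; adjusted p = 1.24e-07), and at 4 h they had 2.58, 2.91 and 2.80 (2.77 ± 0.17, 6.80-fold, adjusted p = 4.26e-16). All 6 arrays lay above 0 at 2 and at 4 h, and the lowest set at 4 h exceeded the highest at 2 h.

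Slc15a3, a lysosomal proton-coupled transporter of histidine and small peptides, was next in this class. LPS raised it at 1 h (0.89, 0.35 and 1.06; mean 0.77 ± 0.37, adjusted p = 6.71e-05), at 2 h (1.24, 1.25 and 1.40; 1.30 ± 0.09, adjusted p = 2.55e-09) and at 4 h (2.07, 2.09 and 2.55; 2.24 ± 0.27, 4.72-fold, adjusted p = 1.04e-15). The ranges of the sets at the 3 times did not overlap. Its relative Slc15a4 is not analysed here.

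The light chains of family 7 form dimers with a heavy chain such as CD98, the product of Slc3a2. Slc7a11, the light chain of the cystine-glutamate exchanger that feeds glutathione synthesis, had 0.75, 0.76 and 0.91 with LPS at 2 h (0.81 ± 0.09, adjusted p = 1.1e-08) and 0.94, 1.08 and 1.06 at 4 h (1.02 ± 0.07, 2.03-fold, adjusted p = 1.08e-11). Its 2 probes disagreed: at 4 h the first gave 2.07, a 4.19-fold rise, and the second −0.02, so the gene's mean understates the change at the first probe. Slc7a7, the light chain of an exchanger that moves arginine and lysine against neutral amino acids, had 0.47, 0.07 and 0.31 at 1 h (adjusted p = 0.0088, lost without set 1 or set 3), 0.55, 0.25 and 0.39 at 2 h (adjusted p = 0.000115) and 0.82, 0.85 and 0.86 at 4 h (0.84 ± 0.02, 1.79-fold, adjusted p = 1.88e-11). The 3 sets of Slc7a7 at 4 h lay closer together than at the earlier times, and all above the highest set of those times.

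Slc3a2 itself rose less. Its means of 0.34 at 1 h (adjusted p = 0.0195) and 0.34 at 2 h (adjusted p = 0.0129) did not pass without set 2 or without set 3, and at 4 h its sets had 0.52, 0.48 and 0.45 (0.48 ± 0.04, 1.40-fold, adjusted p = 0.000156). Slc7a2, an arginine transporter of the plasma membrane, rose at 4 h (0.46, 0.48 and 0.29; 0.41 ± 0.10, adjusted p = 6.03e-07), with 0.82 at the first of its probes and 0.00 at the second. Of the 8 members of family 7, 4 rose at 4 h and 0 fell, against 14.3% and 16.4% of all genes. The last of these 4 is Slc7a8 with 0.26 (adjusted p = 0.0189, lost without set 1 or set 2). Slc7a5, the light chain for large neutral amino acids, did not pass at any time (0.06, 0.13 and −0.00 at 1, 2 and 4 h).

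Among the other amino acid carriers, Slc38a1, a sodium-coupled glutamine transporter, rose at 2 h (0.41 ± 0.13, adjusted p = 3.08e-07) and 4 h (0.36 ± 0.05, adjusted p = 1e-06). Slc1a5, an exchanger of glutamine and other neutral amino acids, rose by 0.17 at 1 h (adjusted p = 0.00827, lost without set 1) and had values of 0.12 at 2 h (adjusted p = 0.0512) and −0.02 at 4 h (adjusted p = 0.892). The lowest member of the class was Slc6a9, the glycine transporter, which fell at 4 h (−0.10, −0.56 and −0.43; −0.36 ± 0.24, adjusted p = 4.05e-05). Slc38a2 is not analysed here.

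RefSeq promoter windows of GRCm38.p6, running from 250 bases before to 50 bases after the annotated start, were found for 119 of the 152 carriers. Both strands were searched for 4 motifs: a kappa B-like motif (GGGA and CC with any 4 bases between them), an interferon response-like motif (GAAA, any 2 bases, GAAA), the cyclic AMP response element TGACGTCA and an amino acid response-like motif TGATGNAA. Some genes have several windows, and a gene counts as holding a motif where any of them does. The first was held by 28.6% of these carriers, by 28.5% of the 8381 tested genes with a window and by 22.9% of all 27025 genes with one. The others were held by 0.840%, 1.68% and 4.20% of the carriers, against 3.97%, 2.68% and 3.19% of the tested genes and 3.99%, 2.03% and 4.51% of all genes. Of the carriers with a window that changed with LPS at 4 h, 4 of 22 higher and 8 of 29 lower members held the kappa B-like motif. The windows of 3 amino acid carriers that rose are shown, since they differ in which motifs they hold. Capitals mark motif matches, which are descriptions of the letters alone, and positions count from 1 at the 5′ end of the window. For Slc6a4 none of the 4 motifs was found in chr11:76998347-76998646 (plus strand). Slc7a11, at chr3:50443564-50443863 (minus strand), holds the amino acid response-like motif at positions 185-192 and, on the opposite strand, at 204-211. Slc7a7 has 5 RefSeq windows, and the window shown, chr14:54417653-54417952 (minus strand), holds the most matches: the amino acid response-like motif at 8-15 and the kappa B-like motif at 99-108, 127-136 and 143-152. No matches overlap.
Slc6a4: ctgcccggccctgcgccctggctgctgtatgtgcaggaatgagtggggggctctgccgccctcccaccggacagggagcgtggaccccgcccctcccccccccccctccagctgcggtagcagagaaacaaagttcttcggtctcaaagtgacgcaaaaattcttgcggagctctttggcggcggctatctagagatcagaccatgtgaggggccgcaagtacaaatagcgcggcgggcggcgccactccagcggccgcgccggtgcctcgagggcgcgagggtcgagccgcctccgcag
Slc7a11: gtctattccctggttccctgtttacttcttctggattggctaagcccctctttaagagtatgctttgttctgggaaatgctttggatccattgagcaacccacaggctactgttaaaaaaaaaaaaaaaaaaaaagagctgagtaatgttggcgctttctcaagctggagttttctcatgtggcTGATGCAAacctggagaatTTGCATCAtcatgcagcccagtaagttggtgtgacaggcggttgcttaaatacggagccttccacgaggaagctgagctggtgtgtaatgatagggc
Slc7a7: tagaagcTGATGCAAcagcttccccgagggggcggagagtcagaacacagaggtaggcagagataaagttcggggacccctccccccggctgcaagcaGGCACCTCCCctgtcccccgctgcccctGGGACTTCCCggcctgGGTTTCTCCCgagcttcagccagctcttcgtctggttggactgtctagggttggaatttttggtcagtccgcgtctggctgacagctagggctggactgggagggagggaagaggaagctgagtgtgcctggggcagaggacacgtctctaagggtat

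Metal carriers split in direction. Of 17, 0 passed at 1 h, 6 rose and 2 fell at 2 h, and 6 rose and 3 fell at 4 h. The shares of all genes were 8.88% higher and 7.01% lower at 2 h, and 14.3% and 16.4% at 4 h. Slc31a2, a copper transporter-like protein of intracellular membranes, had the second highest value of all carriers with LPS at 4 h. Its mean was 0.18 at 1 h (adjusted p = 0.747), its sets had 1.61, 1.22 and 2.08 at 2 h (1.64 ± 0.43, 3.11-fold, adjusted p = 7.83e-07) and 2.00, 2.39 and 2.72 at 4 h (2.37 ± 0.36, 5.17-fold, adjusted p = 9.62e-11). The ranges of its sets at 2 and 4 h overlap. Slc31a1, the main copper importer, is not analysed here.

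The zinc carriers moved by smaller amounts. Slc30a5, a zinc transporter of the early secretory pathway, was −0.27 ± 0.05 with LPS at 2 h (adjusted p = 0.000128) and −0.68, −0.51 and −0.72 at 4 h (−0.64 ± 0.11, adjusted p = 2.85e-12), below 0 on all 6 arrays at both times. Slc30a7, which brings zinc into the Golgi, went the other way, at 0.58, 0.40 and 0.65 at 4 h (0.54 ± 0.13, adjusted p = 6.55e-08). Thus 2 zinc carriers of the secretory pathway changed in opposite directions. Slc30a1, the zinc exporter of the plasma membrane, had 0.14, 0.64 and 0.72 at 4 h (0.50 ± 0.32, adjusted p = 0.0309), a call lost without set 2, without set 3 and at the probe measured on most arrays. Slc39a3, a zinc importer, fell at 2 h (−0.41 ± 0.15, adjusted p = 0.00024) and 4 h (−0.29 ± 0.07, adjusted p = 0.00452, lost without set 2). The pseudogene Slc39a1-ps rose at 4 h (0.81, 0.32 and 0.85; 0.66 ± 0.30, adjusted p = 8.81e-06). Slc39a14 is not analysed here.

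Of 19 carriers of inorganic ions, 1 rose and 1 fell at 1 h, 2 rose and 0 fell at 2 h, and 3 rose and 2 fell at 4 h. This class counts Slc4a1ap and Slc9a3r2, which were placed in it by their symbols. Among all genes 14.3% rose and 16.4% fell at 4 h. Slc20a1, a sodium-phosphate cotransporter that is also the receptor for gibbon ape leukaemia virus, had the highest value of all carriers with LPS at 1 h, 1.87, 0.71 and 1.29 (1.29 ± 0.58, 2.45-fold, adjusted p = 3.64e-05). It stayed high at 2 h (1.83, 1.33 and 1.37; 1.51 ± 0.27, 2.85-fold, adjusted p = 1.09e-06) and 4 h (0.79, 1.44 and 1.09; 1.11 ± 0.32, 2.15-fold, adjusted p = 4.89e-05). The sets of the 3 times overlap. Slc12a4, a potassium-chloride cotransporter, rose at 2 h (0.50 ± 0.12, adjusted p = 2.54e-05) and at 4 h (0.89, 0.67 and 0.84; 0.80 ± 0.12, adjusted p = 1.39e-09). Slc26a2, a sulfate transporter, fell at 4 h (−0.49, −0.56 and −0.46; −0.51 ± 0.05, adjusted p = 0.00418).

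Most of the sugar carriers that were kept fell at 4 h, when 16.4% of all genes did. Slc2a1, set aside by the rule, is not among them. Of 9, 0 rose and 2 fell at 1 h, 0 rose and 3 fell at 2 h, and 1 rose and 6 fell at 4 h. The calls of Slc5a3 and Slc2a8, among those that fell at 4 h, were each lost under an alternative given below. The class median at 4 h was −0.34, the lowest of the 9 classes. Slc37a2, an endoplasmic reticulum exchanger of sugar phosphate and phosphate that is abundant in macrophages, fell most of all carriers with LPS at 4 h. It had −0.58, −0.14 and −0.36 at 1 h (−0.36 ± 0.22, adjusted p = 0.00266, lost without set 1), −0.64, −0.51 and −0.76 at 2 h (−0.64 ± 0.12, adjusted p = 3.2e-07) and −1.60, −1.61 and −1.68 at 4 h (−1.63 ± 0.04, 3.09-fold lower, adjusted p = 4.48e-17). The 4 h sets were all lower than any set at 1 or 2 h.

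Of its relatives, Slc37a3 changed direction with time and Slc37a4 fell less. Slc37a3 fell at 1 h (−0.95, −0.11 and −0.20; −0.42 ± 0.46, adjusted p = 0.00635, lost without set 1) and rose at 4 h (0.78, 0.51 and 0.86; 0.72 ± 0.18, adjusted p = 8.49e-07). Slc37a4, the glucose-6-phosphate translocase, fell at 2 h (−0.33 ± 0.13, adjusted p = 0.00012) and 4 h (−0.42, −0.39 and −0.43; −0.41 ± 0.02, adjusted p = 9.93e-07). Slc37a2 and Slc37a3 thus stood at opposite ends of the sugar class at 4 h.

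Slc5a3, the sodium-myo-inositol cotransporter, was −0.33, −1.12 and −0.91 at 4 h (−0.78 ± 0.41, adjusted p = 0.00274), a call lost without set 2 (adjusted p = 0.0689). Slc2a8, an intracellular glucose transporter, was −0.39, −0.80 and −0.59 (−0.59 ± 0.21, adjusted p = 0.0012), lost at the probe measured on most arrays. Slc2a9, a urate transporter of the glucose transporter family, fell by 0.23 at 4 h (SD 0.03, adjusted p = 1.69e-06). Slc2a3, a glucose transporter of high affinity, had −0.23, −0.27 and −0.34 at 1, 2 and 4 h and did not pass (adjusted p = 0.614, 0.462 and 0.234). Slc2a6 is not analysed here. The promoter window of Slc37a2, shown because this gene leads the decreases, lies at chr9:37255689-37255988 (minus strand) and held none of the 4 motifs.
Slc37a2: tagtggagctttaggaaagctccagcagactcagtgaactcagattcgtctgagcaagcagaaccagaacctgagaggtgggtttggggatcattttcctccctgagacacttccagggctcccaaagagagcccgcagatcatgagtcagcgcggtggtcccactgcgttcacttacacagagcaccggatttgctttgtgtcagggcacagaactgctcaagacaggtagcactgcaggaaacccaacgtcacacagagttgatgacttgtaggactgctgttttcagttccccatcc

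Carriers of nucleosides and nucleotide sugars were also more often lower: of 17, 0 passed at 1 h, 0 rose and 3 fell at 2 h, and 2 rose and 6 fell at 4 h. Of all genes, 14.3% rose and 16.4% fell at 4 h. The 2 routes for nucleosides across the plasma membrane moved in opposite directions. Slc28a2, a sodium-coupled concentrative nucleoside transporter, had means of −0.20 at 1 h and 0.12 at 2 h and rose at 4 h, with 1.53, 1.43 and 1.70 (1.55 ± 0.14, 2.93-fold, adjusted p = 2.1e-14). Its first probe gave 3.10 at 4 h, an 8.59-fold rise. The other gave 0.00 with LPS at all 3 times, so the gene's mean understates the change at the first probe. The equilibrative transporters fell: Slc29a2 to −0.62, −0.68 and −0.78 at 4 h (−0.69 ± 0.08, adjusted p = 0.00169) and Slc29a1 to −0.49, −0.21 and −0.36 (−0.36 ± 0.14, adjusted p = 5.52e-06). Slc29a3, the equilibrative transporter of lysosomes, had −0.09, −0.18 and 0.21 at 1, 2 and 4 h and did not pass. In family 35, Slc35a5 fell at 2 h (−0.42 ± 0.14, adjusted p = 5.99e-05). Slc35f6 fell at 4 h, with −0.56, −0.53 and −0.06 (−0.38 ± 0.28, adjusted p = 0.00232, lost without set 1 or set 2).

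**Figure D2:**
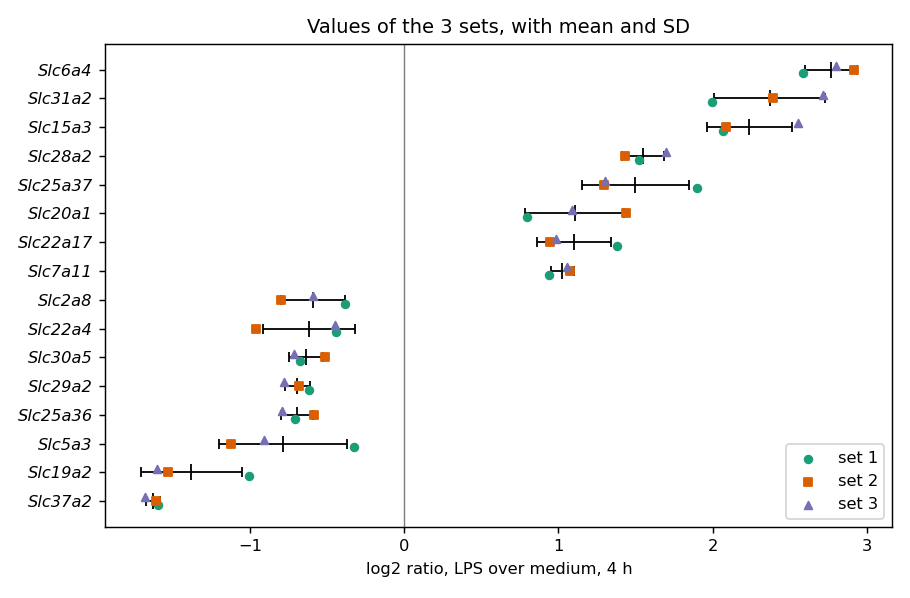
Log2 ratio with LPS at 4 h in each of the 3 sets (points) for the 8 carriers with the highest and the 8 with the lowest values among those that passed and had 1 sign in all 3 sets; bars give the mean and SD over sets. Slc37a2 spans −1.68 to −1.60, while Slc5a3 spans −1.12 to −0.33.

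Among 22 mitochondrial carriers, 2 rose and 1 fell at 1 h, 4 rose and 2 fell at 2 h, and 4 rose and 6 fell at 4 h. Beside the 4 h counts, 14.3% of all genes rose and 16.4% fell. Slc25a37, mitoferrin-1, which imports iron for haem and iron-sulfur clusters, rose at 1 h (0.97, 0.31 and 0.60; 0.63 ± 0.33, adjusted p = 0.00102, lost without set 1), at 2 h (1.11, 1.20 and 1.17; 1.16 ± 0.04, adjusted p = 2.2e-08) and at 4 h (1.90, 1.30 and 1.30; 1.50 ± 0.35, 2.83-fold, adjusted p = 1.71e-11). Each set at 2 h exceeded each at 1 h, and each at 4 h exceeded each at 2 h. The pyrimidine nucleotide carriers Slc25a33 and Slc25a36 went opposite ways. Slc25a33 had 1.31, 0.23 and 0.78 at 1 h (0.77 ± 0.54, adjusted p = 0.000447, 0.0861 without set 1), 0.68, 0.81 and 0.86 at 2 h (0.78 ± 0.10, adjusted p = 0.000159) and a mean of 0.29 at 4 h (adjusted p = 0.151). Slc25a36 had −0.45 at 2 h (adjusted p = 0.0135, lost without set 1 or set 3) and −0.71, −0.59 and −0.79 at 4 h (−0.70 ± 0.10, adjusted p = 4.67e-05).

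Slc25a30, a carrier of the uncoupling protein branch, was the lowest carrier with LPS at 1 h (−0.99, −0.31 and −0.47; −0.59 ± 0.36, adjusted p = 8.95e-06) and was also lower at 4 h (−0.39 ± 0.09, adjusted p = 0.000504). Slc25a25, an ATP-magnesium and phosphate carrier, rose at 4 h (0.62 ± 0.05, adjusted p = 9.53e-08), as did Slc25a20, the carnitine-acylcarnitine carrier of fatty acid oxidation (0.55 ± 0.22, adjusted p = 7.18e-07). The dicarboxylate carrier Slc25a10 (−0.49 ± 0.05, adjusted p = 9.42e-06) and the aspartate-glutamate carrier Slc25a13 (−0.38 ± 0.07, adjusted p = 6.08e-05) fell at 4 h. The citrate carrier Slc25a1 did not pass at any time (0.15, 0.12 and −0.03).

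Of 11 carriers of organic ions, 0 rose and 1 fell at 1 h, 2 rose and 1 fell at 2 h, and 1 rose and 3 fell at 4 h. The 4 h shares of all genes were 14.3% and 16.4%. Slc22a17, described as a receptor for the siderophore-binding protein lipocalin-2, rose at 2 h (0.42 ± 0.17, adjusted p = 0.000191) and 4 h (1.38, 0.94 and 0.98; 1.10 ± 0.24, 2.15-fold, adjusted p = 3.18e-13). The carnitine and ergothioneine branch of the same family went down: Slc22a4 was −0.44, −0.96 and −0.45 at 4 h (−0.62 ± 0.30, adjusted p = 1.48e-05), and Slc22a5, the carnitine importer, was −0.30, −0.37 and −0.33 at 1, 2 and 4 h (adjusted p = 0.0383, 0.00448 and 0.00485). All 3 calls of Slc22a5 were lost without set 1.

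Of 16 carriers of lipids, vitamins, choline, haem and other solutes, 0 passed at 1 h, and 0 rose and 2 fell at 2 h. At 4 h 1 rose and 4 fell, when 14.3% of all genes rose and 16.4% fell. Slc19a2, the high-affinity thiamine (vitamin B1) transporter, had the second largest decrease of all carriers at 4 h. Its means of −0.07 at 1 h and −0.32 at 2 h (adjusted p = 0.0776) did not pass, and at 4 h its sets had −1.01, −1.53 and −1.60 (−1.38 ± 0.33, 2.60-fold lower, adjusted p = 4.27e-11). Slc27a3, of the fatty acid transport protein family, fell at 2 h (−0.38 ± 0.20, adjusted p = 0.0137, lost without set 3) and rose at 4 h (0.42 ± 0.19, adjusted p = 0.00306, lost without set 1). The promoter window of Slc19a2, shown as that of the second largest decrease, lies at chr1:164248796-164249095 (plus strand) and holds a kappa B-like match at 91-100.
Slc19a2: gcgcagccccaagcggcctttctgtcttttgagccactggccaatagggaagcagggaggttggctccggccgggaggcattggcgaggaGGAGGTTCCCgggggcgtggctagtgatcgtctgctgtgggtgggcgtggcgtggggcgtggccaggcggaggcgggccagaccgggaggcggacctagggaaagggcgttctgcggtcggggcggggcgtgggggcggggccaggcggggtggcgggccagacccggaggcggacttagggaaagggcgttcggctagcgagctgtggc

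Of 9 carriers of monocarboxylates and related families, 1 rose and 0 fell at both 1 and 2 h. At 4 h 1 rose and 3 fell, against 14.3% and 16.4% of all genes. Slc16a10, which despite its family carries aromatic amino acids and thyroid hormone, had means of 0.24 at 1 h and −0.10 at 2 h and fell at 4 h (−0.51, −0.39 and −0.53; −0.48 ± 0.07, adjusted p = 2.59e-05). Slc16a3, a lactate exporter of glycolytic cells, rose at 2 h (0.28 ± 0.06, adjusted p = 0.0157, lost without set 1 or set 2) and had 0.20 at 4 h (adjusted p = 0.0745). Slc16a1, a lactate and pyruvate transporter, had −0.15 ± 0.10 at 4 h (adjusted p = 0.0477), lost whichever set was left out. Slc13a1, a sodium-sulfate cotransporter of kidney, rose at 4 h (0.53, 1.22 and 0.95; 0.90 ± 0.35, adjusted p = 1.76e-09), but its 3 probes gave 0.13, 1.09 and 1.49 and the call was lost at the probe measured on most arrays. Slc13a3 is not analysed here.

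The response to LPS differed between the 3 times in 30 of the 152 carriers (19.7%) by a test over all 3 times. This was near the 18.5% of all genes, and the genes on at least 44 arrays were not counted. Of the 30, 17 were highest at 4 h, 10 lowest at 4 h and 3 highest at 2 h. Slc28a2 (adjusted p = 2.71e-11), Slc6a4 (1.86e-10) and Slc37a2 (4.1e-10) had the smallest adjusted p in that test, and all had their farthest value at 4 h. Slc20a1 was not among the 30. With the LPS groups fitted alone, 18 passed.

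**Figure D3:**
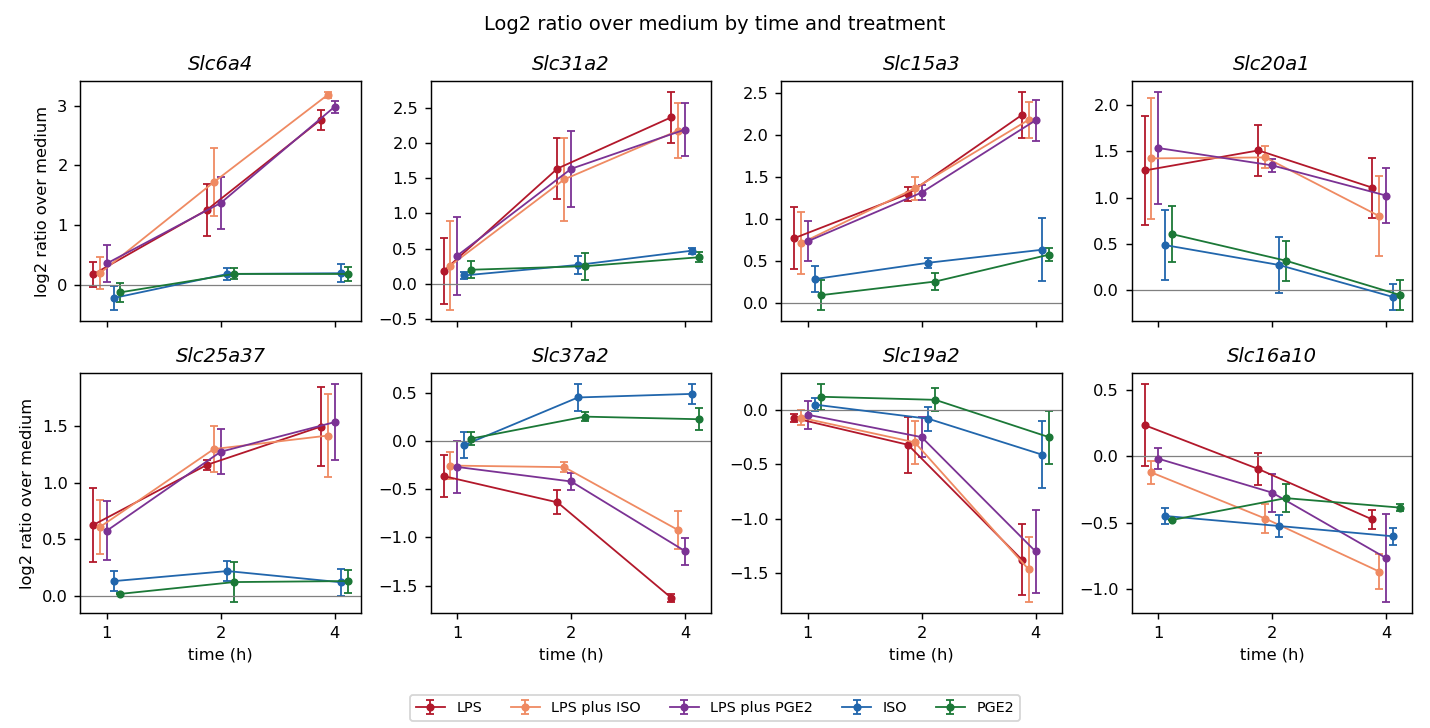
Log2 ratio over medium at 1, 2 and 4 h for 8 carriers in the 5 treatments (mean ± SD of 3 sets, 2 sets for PGE2 at 1 h). At 4 h the means of the 3 groups with LPS lie apart from those of ISO and PGE2 in every panel but that of Slc16a10, where all 5 means are below 0.

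ISO alone moved few carriers: 1 fell at 1 h, 3 rose and 2 fell at 2 h, and 5 rose and 4 fell at 4 h, against 0.903%, 1.71% and 3.36% of all genes (1.06%, 2.03% and 3.8% of the genes on at least 44 arrays). PGE2 alone moved 1 carrier at 1 h (lower), 0 at 2 h by limma (7 at an unadjusted p under 0.05) and 5 at 4 h (3 higher, 2 lower), against 0.323%, 0.456% and 1.14% of all genes (0.361%, 0.547% and 1.39% of those on at least 44 arrays). In these pairs without LPS the 2 arrays of a dye swap correlated weakly over the carriers (r from −0.453 to 0.467 in 17 pairs, against −0.174 to 0.914 in 27 pairs with LPS). The values below 0 with LPS were all those of set 2 at 1 h. With only the groups of a single comparison fitted, 0 carriers passed in each of these comparisons. Leaving out set 2 or set 3 left 5 of the 9 calls of ISO at 4 h in number, and leaving out any set left at most 1 call of PGE2 at 4 h.

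Slc16a10 was the carrier that these ligands lowered most steadily. With ISO its sets were −0.50, −0.38 and −0.46 at 1 h (−0.45 ± 0.06, adjusted p = 0.00265), −0.56, −0.58 and −0.43 at 2 h (−0.53 ± 0.08, adjusted p = 0.000157) and −0.54, −0.67 and −0.60 at 4 h (−0.60 ± 0.07, 1.52-fold lower, adjusted p = 2.28e-05). PGE2 gave −0.48 and −0.48 at 1 h (adjusted p = 0.0299), −0.19, −0.39 and −0.36 at 2 h (adjusted p = 0.115) and −0.40, −0.36 and −0.40 at 4 h (adjusted p = 0.0112). With ISO all 6 arrays, 3 of each dye orientation, lay below 0 at each time, and these 3 calls passed whichever set was left out. The PGE2 call at 4 h was lost whichever set was left out, and the one at 1 h rests on only 2 sets. At 1 h Slc16a10 had −0.12 with LPS and ISO (adjusted p = 0.484), −0.02 with LPS and PGE2 (adjusted p = 0.994) and 0.24 with LPS alone.

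Slc37a2 and its relative Slc37a3 both rose with ISO. Slc37a2 had −0.04 at 1 h, 0.62, 0.37 and 0.38 at 2 h (0.46 ± 0.14, adjusted p = 0.000629, lost without set 1) and 0.39, 0.60 and 0.48 at 4 h (0.49 ± 0.10, adjusted p = 0.000208). With PGE2 it had 0.26 at 2 h (adjusted p = 0.267) and 0.23 at 4 h (adjusted p = 0.244). Slc37a3 rose with ISO at 2 h (0.41 ± 0.20, adjusted p = 0.0243) and 4 h (0.46 ± 0.12, adjusted p = 0.00704) and with PGE2 at 4 h (0.46 ± 0.06, adjusted p = 0.0138), each call lost without 2 or more of the sets in turn. For Slc37a2 the sign with ISO was thus the opposite of that with LPS, while for Slc37a3 at 4 h it was the same.

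Slc7a7 and Slc15a3, which LPS raised, were also raised by each ligand at 4 h. Slc7a7 had 0.54, 0.44 and 0.50 with ISO (0.50 ± 0.05, adjusted p = 4.02e-05) and 0.27, 0.42 and 0.38 with PGE2 (0.36 ± 0.08, adjusted p = 0.00557). Slc15a3 had 0.21, 0.92 and 0.78 with ISO (0.63 ± 0.38, adjusted p = 0.00259) and 0.49, 0.63 and 0.60 with PGE2 (0.57 ± 0.07, adjusted p = 0.0126). All 6 arrays were above 0 for each of these 4 values. At 2 h Slc15a3 had also risen with ISO, with 0.51, 0.41 and 0.52 (0.48 ± 0.06, adjusted p = 0.0441). The call of Slc7a7 with ISO passed whichever set was left out. Its call with PGE2 and that of Slc15a3 with ISO at 4 h were lost without set 2 or set 3, and the calls of Slc15a3 with PGE2 at 4 h and with ISO at 2 h were lost whichever set was left out.

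Slc16a3 fell with ISO at 4 h (−0.60, −0.16 and −0.40; −0.38 ± 0.22, adjusted p = 0.00553, lost without set 1 or set 3) and had −0.02 with PGE2. Slc30a5 fell with ISO at 2 h (−0.22, adjusted p = 0.0118) and 4 h (−0.18, adjusted p = 0.0375). The remaining calls were Slc16a9 (−0.33 with ISO at 4 h, adjusted p = 0.0385), Slc2a9 (−0.13 with PGE2 at 4 h, adjusted p = 0.0498) and Slc32a1 (0.34 with ISO at 4 h, adjusted p = 0.0169). All 5 of these smaller calls were lost when some sets were left out. Slc32a1, the vesicular carrier of inhibitory neurotransmitters, was above 0 on 3 of 6 arrays there and is the carrier with the fewest measured arrays. Of the carriers that led with LPS, Slc6a4, Slc31a2, Slc25a37, Slc28a2 and Slc19a2 passed with neither ligand at any time. With ISO at 4 h, Slc6a4 had 0.20 (adjusted p = 0.595), Slc31a2 0.47 (adjusted p = 0.275), Slc25a37 0.12 (adjusted p = 0.728), Slc28a2 0.16 (adjusted p = 0.467) and Slc19a2 −0.41 (adjusted p = 0.0573).

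In the combinations the carriers' counts were near those of LPS at 1 h and lower at 2 and 4 h. At 1, 2 and 4 h, 9.21%, 19.1% and 39.5% of the carriers passed with LPS and ISO. With LPS and PGE2 8.55%, 17.8% and 36.8% passed. The shares with LPS and PGE2 at 1 and 4 h were below those of the genes on at least 44 arrays. LPS with ISO raised 7 and lowered 7 at 1 h, raised 18 and lowered 11 at 2 h, and raised 27 and lowered 33 at 4 h, against 7.43%, 13.9% and 30.0% of all genes (8.92%, 16.8% and 36.5% of those on at least 44 arrays). LPS with PGE2 raised 9 and lowered 4 at 1 h, raised 18 and lowered 9 at 2 h, and raised 27 and lowered 29 at 4 h, against 7.68%, 13.3% and 31.6% of all genes (9.07%, 16.0% and 38.2% of those on at least 44 arrays). At 1 h the counts depend on the sets: 4 without set 1 and 5 without set 3 for LPS with ISO, and 7 and 5 for LPS with PGE2. With only the groups of a single comparison fitted, 8 passed for LPS with ISO and 16 for LPS with PGE2 at 4 h.

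**Figure D4:**
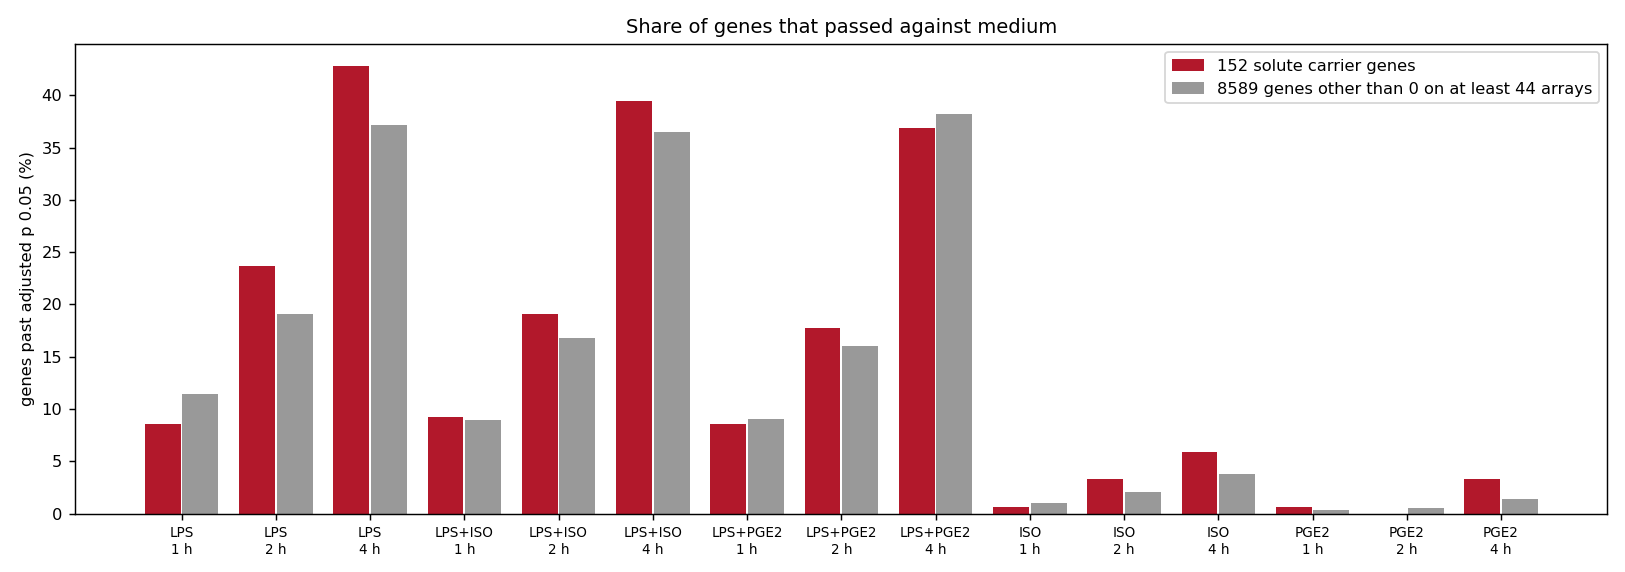
Percentage of genes past an adjusted p of 0.05 against medium, for the 152 solute carriers and for the 8589 genes other than 0 on at least 44 arrays, in the 5 treatments at 1, 2 and 4 h. The carriers' bars are 42.8% with LPS, 39.5% with LPS and ISO and 36.8% with LPS and PGE2 at 4 h, and at most 5.92% with ISO or PGE2 alone.

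The carriers that led with LPS also led in the combinations at 4 h. Slc6a4 had 3.17, 3.23 and 3.14 with LPS and ISO at 4 h (3.18 ± 0.05, 9.08-fold, adjusted p = 2.02e-17) and 3.04, 3.03 and 2.87 with LPS and PGE2 (2.98 ± 0.10, 7.90-fold, adjusted p = 1.01e-16). Slc15a3 had 2.18 and 2.17, Slc31a2 2.18 and 2.19, Slc25a37 1.42 and 1.54, Slc28a2 1.47 and 1.14, and Slc7a11 1.16 and 1.28 with LPS and ISO and with LPS and PGE2 at 4 h. Slc19a2 had −1.47 (±0.30, adjusted p = 1.12e-11) and −1.30 (±0.38, adjusted p = 1.69e-10). At 1 h the highest carrier in both combinations was Slc20a1, with 1.42 and 1.53.

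Each combination was tested against LPS alone. By the labels these groups differ in the second ligand and also in the lipid binding protein, which is named for LPS alone, and the parts of the 2 in a difference cannot be told apart. These tests share the LPS arrays between the 2 ligands, so their values stand side by side and are not independent. For LPS with ISO, 0, 0 and 1 carriers passed at 1, 2 and 4 h by limma (8, 6 and 9 at an unadjusted p under 0.05), against 0.019%, 0.0% and 0.0951% of all genes. For LPS with PGE2, 0 passed at each time (4, 3 and 13 at an unadjusted p under 0.05), against 0.0%, 0.0% and 0.0285% of all genes. With the set number as a block, the counts at 4 h were higher for both combinations, as given at the end.

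The carrier that passed in the main fit was Slc37a2. Its sets at 4 h were −1.15, −0.82 and −0.80 with LPS and ISO (−0.92 ± 0.19) and −1.60, −1.61 and −1.68 with LPS alone, a difference of 0.71 (SE 0.11, 1.63-fold, adjusted p = 0.00225). With LPS and PGE2 the sets were −1.23, −0.98 and −1.22 (−1.14 ± 0.14), a difference from LPS of 0.49 (SE 0.11, adjusted p = 0.142). No set of either combination reached down to the sets of LPS alone. The call for LPS with ISO was lost without set 2 and without set 3 (adjusted p up to 0.164) and with only these groups fitted, and it is in the direction of ISO alone.

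The next lowest adjusted p for LPS with ISO against LPS at 4 h was that of Slc16a3 (−0.30 with LPS and ISO, 0.20 with LPS; difference −0.50, SE 0.12, adjusted p = 0.104). Slc16a10 had −0.76, −0.83 and −1.02 with LPS and ISO at 4 h (−0.87 ± 0.13, adjusted p = 3.47e-10 against medium), −0.41, −0.83 and −1.06 with LPS and PGE2 (−0.77 ± 0.33, adjusted p = 5e-09), and −0.48 with LPS alone. Its difference from LPS was −0.39 with ISO (adjusted p = 0.545) and −0.29 with PGE2 (adjusted p = 1.0).

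Additivity was tested over all 3 times together, as LPS with a ligand minus LPS minus that ligand, a quantity to which the same limit applies. It passed for 0 carriers by limma with ISO and 0 with PGE2 (12 and 2 at an unadjusted p under 0.05), against 0.0856% and 0.00951% of all genes. With the set number as a block the count with ISO was above 0, as given at the end. The lowest adjusted p were those of Slc7a7 (−0.55 at 4 h, adjusted p = 0.302) and Slc15a3 (−0.69 at 4 h, adjusted p = 0.499) with ISO. For both the combination at 4 h was close to LPS alone: Slc7a7 had 0.79 with LPS and ISO and 0.84 with LPS, and Slc15a3 2.18 and 2.24, although ISO alone raised each of them.

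Amino acid carriers such as Slc7a11 and Slc3a2 are known targets of the amino acid response, a stress pathway in which the transcription factor ATF4 drives genes for amino acid supply. Of a list of 20 genes of that pathway other than carriers, 19 gave values on at least 44 arrays. With LPS 6 rose and 1 fell at 1 h, 4 rose and 0 fell at 2 h, and 5 rose and 3 fell at 4 h. Most of the 19 thus did not pass at each time, and the list's median log2 ratio for the 3 times in turn was 0.14, 0.14 and −0.02. For scale, 14.3% of the tested genes passed upward with LPS at 4 h and 16.4% downward. Whether the pathway responded as a whole was not tested. The members named next were picked after their values were seen and do not stand for the list. Ppp1r15a, a phosphatase subunit that ends the response, had 3.06, 1.40 and 1.53 at 1, 2 and 4 h, and Atf4 itself 0.46, 0.26 and 0.34. Nupr1 had 1.56 and 2.21 at 2 and 4 h, while Sesn2 was 0.79 at 1 h and −0.47 at 4 h. With ISO alone and with PGE2 alone 0 of the 19 passed at any time. Among 18 measured transporters that have no Slc symbol, 1 rose and 3 fell with LPS at 1 h, 2 rose and 1 fell at 2 h, and 3 rose and 1 fell at 4 h, Mfsd2a (0.85) and Ctns (−0.82), the lysosomal cystine exporter, being the farthest at 4 h.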

How the data were processed

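RNA of treated and of time-matched medium cells was hybridised to 88 two-channel arrays, 44 dye-swap pairs in 15 groups, per the labels. The authors deposited 1 table of log2 ratios per probe and array. Its scale was read from the values, whose limit is log2 of a 100-fold ratio, and image analysis, normalization and centring are steps not given in the sources used here. With no spot intensities at hand, the brightness behind a ratio is unknown, and the number of arrays limits the precision. All column medians were 0.

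The 13260 probes with 1 gene that were other than 0 on some array were averaged to 10518 genes (46 of the 152 carriers have several probes), and the 2 arrays of a pair to 1 value. Tests used R 4.3.3 with limma 3.58.1: a mean per group over all 44 pairs, eBayes, and Benjamini-Hochberg adjustment over all genes, with 0.05 as the threshold. The script was checked on simulated data.

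The carriers, their classes and the other lists were chosen with earlier results of these data known. Classes follow the family number, and each is named for a typical solute. A class can therefore hold carriers of other solutes, such as Slc2a9 and Slc5a3 among the sugar carriers. Named were the 8 highest and 8 lowest carriers that passed with LPS at 4 h with the same sign in every set, the 5 highest and 4 lowest of each other treatment, up to 4 each way for a combination against LPS, the extremes of each class, and a fixed list. Slc7a8, Slc38a1, Slc30a7, Slc39a1-ps, Slc12a4, Slc37a4, Slc29a1, Slc25a25, Slc25a20, Slc25a10, Slc25a13, Slc32a1 and the genes of the other lists were named after their values were seen. Alternatives were zeros as missing, centring on values other than 0, the probe measured on most arrays, fewer genes or groups in the fit, the set number as a block, and leaving out each set.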

Additional observations from a re-analysis of the deposited data

Results flagged for a closer look

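The response to LPS differed between 1, 2 and 4 h in 30 carriers by a test over the 3 times. That is 19.7% of the carriers, near the 18.5% of all genes. Each is given here with its adjusted p. Among those highest or lowest at 4 h with a change of 2-fold or more, the values were 2.71e-11 for Slc28a2, 1.86e-10 for Slc6a4, 4.1e-10 for Slc37a2, 4.61e-07 for Slc15a3, 5.64e-07 for Slc22a17, 8.33e-07 for Slc19a2, 1.14e-06 for Slc7a11, 5.36e-06 for Slc31a2 and 0.0017 for Slc25a37. Metal and inorganic ion carriers gave 1.15e-07 for Slc30a5, 0.0165 for Slc30a7, 0.00516 for Slc39a13, 0.0031 for Slc41a3, 0.00117 for Slc12a4 and 0.0312 for Slc12a7. Amino acid carriers gave 0.000174 for Slc7a7, 0.00176 for Slc7a2, 0.0142 for Slc38a1 and 0.00624 for Slc6a9. Mitochondrial carriers gave 0.00192 for Slc25a10, 0.00718 for Slc25a13, 0.0235 for Slc25a14 and 0.00597 for Slc25a25. The others were 9.02e-06 for Slc13a1, 0.000113 for Slc16a10, 0.0067 for Slc22a6, 0.000736 for Slc27a3, 0.00511 for Slc29a1, 1.26e-06 for Slc37a3 and 0.036 for Slc37a4. Slc37a3 and Slc27a3 passed with opposite signs at an early time and at 4 h.

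Slc37a2 differed between LPS with ISO and LPS alone at 4 h by 0.71 (log2), where the 3 sets of each group did not overlap. The labels name the lipid binding protein for LPS alone.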

How the results depend on the processing

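No named call changed direction under any alternative that was run, and the calls of carriers not named were not checked for this. Of 142 named calls, 8 were lost with the probe measured on most arrays, 5 with zeros as missing, 1 with centring on values other than 0, 1 with genes on at least 44 arrays, and 40, 26 and 41 without sets 1, 2 and 3. The choice that moved counts most was the fit on the groups of a single comparison, which lost 114 named calls. It left 0, 4 and 29 carriers with LPS, 0, 1 and 8 with LPS and ISO and 0, 0 and 16 with LPS and PGE2 at 1, 2 and 4 h, 0 with ISO at each time, 0 with PGE2 at 1 and 4 h, 0 for LPS with ISO against LPS at 4 h, and 18 between times. Far fewer pairs then set the spread.

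Leaving out each set in turn gave 5 to 20, 25 to 26 and 51 to 55 carriers with LPS at 1, 2 and 4 h, 4 to 15, 23 to 25 and 45 to 49 with LPS and ISO, 5 to 13, 21 to 23 and 47 to 51 with LPS and PGE2, 2 to 2, 1 to 3 and 5 to 9 with ISO, 0 to 0 and 0 to 1 with PGE2 at 1 and 4 h, 0 to 1 for LPS with ISO against LPS at 4 h, and 24 to 26 between times. Without either of its 2 sets, PGE2 at 1 h is a single set, taken to vary like the other groups.

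Sets of the same number in different groups did not deviate together throughout: over 301 pairs of sets, r had a median of 0.092 and a range of −0.419 to 0.766, with 148 above 0.1, while 602 pairs of different number had a median of −0.044, with 120 above 0.1. The main fit did not take the set number as a pairing. Pairs of the same number were still above 0.1 more often than the others, so a deviation shared by sets of 1 number is not modelled in that fit. With the set number as a replicate block, 2 carriers passed for LPS with ISO against LPS at 4 h and 1 for LPS with PGE2 against LPS at 4 h. For the departure of LPS with ISO from its single treatments 1 passed. Without the block these counts were 1, 0 and 0, and with it 0 named calls were lost.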
